A study of Mus musculus with 6 samples.

Results

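The genes described here are the 9 that carry a type I interferon signal from the cell surface to the nucleus or restrain it, namely the receptor chains Ifnar1 and Ifnar2, the kinases Jak1 and Tyk2, the factors Stat2, Irf9, Irf7 and Irf1, and the inhibitor Socs1. They were chosen by gene symbol, as every row of the deposited value table whose probe annotation gives 1 of these symbols. The list of symbols was written with earlier results of these data known. All 9 were found, on 10 of the 35556 probe sets, among 19938 genes with a symbol of their own. Irf1 was the one member with 2 probe sets.

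The values come from 6 Affymetrix arrays hybridised with total RNA of the wild-type mouse line C2C12, myoblasts that differentiate into myotubes in low serum. The cells had received either H19 siRNA (simH19), directed against the imprinted long noncoding RNA H19, or control siRNA (siCon). In both groups the siRNA was given on day 1 of differentiation in 2% horse serum, and RNA was taken 40 h later. H19 siRNA and control siRNA groups held 3 arrays each. The labels name 1 kind of H19 siRNA and 1 kind of control siRNA and no untransfected cells. An effect of lower H19 therefore cannot be told apart from any other difference between the 2 kinds of siRNA. This holds for every difference below. The labels do not say whether the triplicates are separate cultures, so the spread behind the p-values may be technical.

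In type I interferon signalling the cytokine brings IFNAR1 and IFNAR2 together, and the kinases TYK2 and JAK1 bound to their tails phosphorylate STAT proteins. STAT2 acts with IRF9 in the factor ISGF3, which binds interferon-stimulated response elements (ISREs) in promoters of antiviral genes. IRF7 and IRF1 are transcription factors that interferons induce and that extend the response, and SOCS1 is an induced inhibitor of the JAK kinases. Muscle cells, like most nucleated cells, carry this receptor.

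Values are RMA levels on the log2 scale, and differences are H19 siRNA minus control siRNA from limma, with the adjusted p corrected over all 21559 units tested (1 probe set per gene, plus probe sets that list several genes) and a threshold of 0.05. Levels of different genes are not compared, since each probe set has its own response. The arrays resembled each other closely, with Pearson's r of 0.9958 to 0.9975 between pairs across all probe sets and array medians of 6.73 to 6.78. The signal closest to H19, a probe set shared by Mir675, the microRNA that H19 hosts, and Supt6, stood at 26.9% of the control level in the H19 siRNA arrays. Of 10 muscle markers 9 had a positive difference, against 58.0% of all units. Without overlap between the groups 8 were higher, against 10.5% of all units. Tnnt2, a troponin T gene, was the one past the threshold, where 0.125% of all units were called higher. The mean level of the 10 was 11.76 to 11.82 on the H19 siRNA arrays and 11.64 to 11.65 on the control siRNA arrays. Whether this shift has a part in the values below was not tested. None of the 9 macrophage and leukocyte markers passed (1 at an unadjusted p under 0.05, lower). Ptprc stood at 5.17 in H19 siRNA and 5.19 in control siRNA arrays and Adgre1 at 4.63 in H19 siRNA and 4.59 in control siRNA arrays. Cd14 stood at 8.19 in H19 siRNA and 8.33 in control siRNA arrays and Cd68 at 7.86 in H19 siRNA and 8.05 in control siRNA arrays, with every H19 siRNA array below every control siRNA array for Cd68 (limma adjusted p = 0.278). The mean level of the 9 was 6.14 to 6.19 on the H19 siRNA arrays and 6.18 to 6.19 on the control siRNA arrays. Of 6 plasmacytoid dendritic cell markers, cells known for high Irf7, Bst2 alone passed, an interferon-induced gene. Of the 6, 3 were lower without overlap (Tcf4, Spib and Ly6d), against 7.09% of all units. Siglech stood at 5.87 in H19 siRNA and 5.89 in control siRNA arrays, and Tcf4 at 11.68 in H19 siRNA and 11.73 in control siRNA arrays. The mean level of the 6 was 7.16 to 7.19 on the H19 siRNA arrays and 7.12 to 7.16 on the control siRNA arrays. The part of these markers in the values below was not tested.

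The nuclear factors Stat2, Irf9 and Irf7 were 1.19-fold to 1.28-fold higher with H19 siRNA, the receptor chain Ifnar1 and the kinase Jak1 stood at about 92% of control, and Ifnar2, Tyk2 and Irf1 differed by less than 0.05 on the log2 scale. Over all units 0 of the 9 passed the adjusted threshold in limma in either direction, where 0.125% of all units were called higher and 0.0742% lower. At an unadjusted p under 0.05, 4 of the 9 were higher (44.4%, against 6.61% of all units) and 2 were lower (22.2%, against 4.25%). As the 9 were chosen with earlier results known, these shares are not independent evidence. Of the 9 genes 4 had a positive difference (44.4%, against 58.0% of all units) and 5 a negative one. The median difference of the 9 was -0.0076, against 0.0137 over all units. In bulk RNA a change in the number of cells of a type and a change in RNA per cell cannot be told apart.

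**Figure D1:**
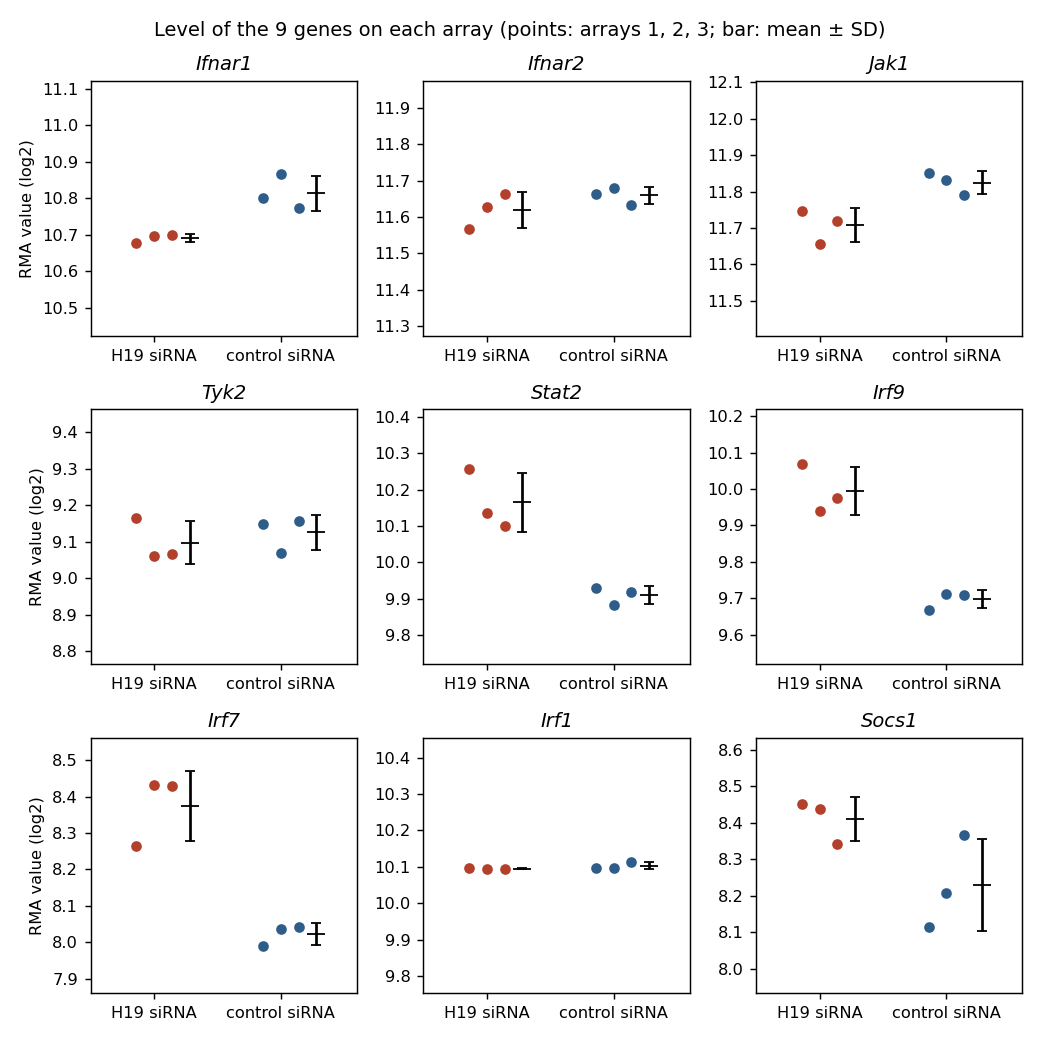
RMA level (log2, vertical axis) of each gene on the 3 H19 siRNA arrays (left, red) and the 3 control siRNA arrays (right, blue), with the mean ± SD in black; every panel spans the same range. For Stat2, Irf9 and Irf7 all H19 siRNA points lie above all control siRNA points, and for Ifnar1 and Jak1 all lie below.

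The ISGF3 genes Stat2 and Irf9 read higher on every H19 siRNA array than on any control siRNA array. Stat2, the STAT specific to type I and type III interferon signalling, read 10.26, 10.14 and 10.10 on the H19 siRNA arrays and 9.93, 9.88 and 9.92 on the control siRNA arrays. The groups did not overlap, with a gap of 0.17 between the lowest H19 siRNA and the highest control siRNA array. The difference was 0.25 (SE 0.05, 95% interval 0.14 to 0.37), with a limma adjusted p of 0.138. Irf9, the DNA-binding subunit that recognises the response element, read 10.07, 9.94 and 9.98 on the H19 siRNA arrays and 9.67, 9.71 and 9.71 on the control siRNA arrays. Here too the groups were apart, by 0.23, and Irf9 had the smallest p of the 9 genes. Its difference was 0.30 (SE 0.04, interval 0.19 to 0.40), with a limma adjusted p of 0.0779.

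Irf7, the factor that amplifies interferon alpha genes and is itself an ISGF3 target, had the widest difference of the 9. It read 8.26, 8.43 and 8.43 on the H19 siRNA arrays and 7.99, 8.04 and 8.04 on the control siRNA arrays, again without overlap and with a gap of 0.22. The difference was 0.35 (SE 0.05, interval 0.22 to 0.48), or 1.28-fold, with a limma adjusted p of 0.0812. The first H19 siRNA array was the highest for Stat2 and Irf9 and the lowest for Irf7, so within the H19 siRNA group these 3 genes did not vary in step. After the group means were taken out, Pearson's r over the 6 arrays was 0.71 between Stat2 and Irf9, -0.94 between Stat2 and Irf7 and -0.77 between Irf9 and Irf7, a description of 6 points that share arrays and normalisation.

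Irf1, a tumour suppressor and interferon gamma-induced factor, showed the smallest difference of the 9. Its main probe set read 10.10, 10.09 and 10.10 on the H19 siRNA arrays and 10.10, 10.10 and 10.11 on the control siRNA arrays. All H19 siRNA arrays were nominally below all control arrays, but by a gap of only 0.0005. The difference was -0.0076 (interval -0.08 to 0.06, limma adjusted p = 0.950). The other Irf1 probe set, annotated by a single cDNA clone, read 7.05, 6.86 and 6.97 with H19 siRNA and 6.83, 6.89 and 7.08 with control siRNA. Its groups overlapped, and the difference was 0.03 (interval -0.18 to 0.23) in the fit over all probe sets. Both intervals therefore leave out a difference of the size seen in Irf7.

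**Figure D2:**
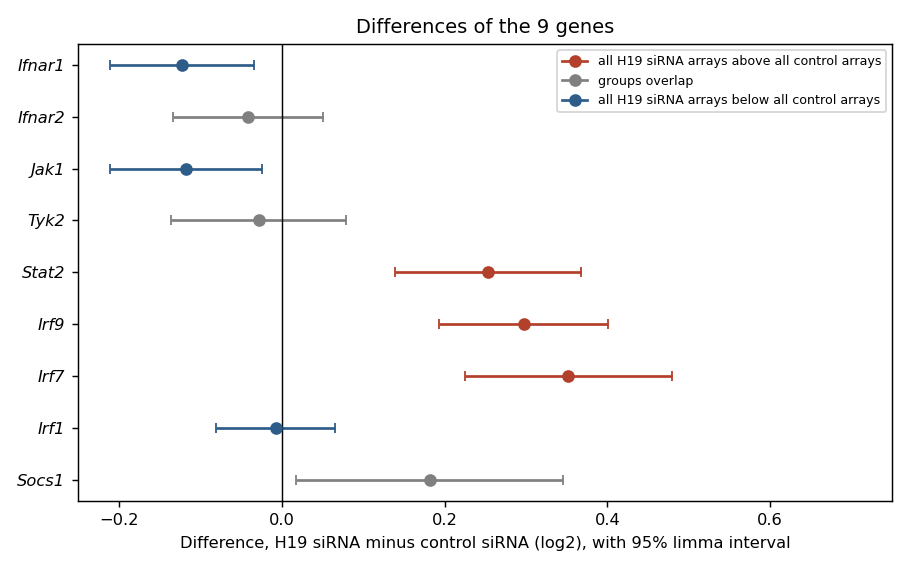
Difference in level between H19 siRNA and control siRNA (log2, horizontal axis) for each of the 9 genes, ordered from receptors at the top to the inhibitor at the bottom, with 95% limma intervals, n = 3 arrays per group. The intervals of Stat2, Irf9, Irf7 and Socs1 lie above 0, those of Ifnar1 and Jak1 below 0, and those of Ifnar2, Tyk2 and Irf1 span 0.

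Among the 9 genes 3 were without overlap in the higher direction (33.3%, against 10.5% of all units) and 3 in the lower direction (33.3%, against 7.09%). The lower count includes Irf1 with its gap of 0.0005. With 3 arrays per group the smallest p of an exact two-sided permutation test is 0.1. Any gene whose groups do not overlap has this p, so all 6 of these genes have it, Irf1 included.

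The promoters of the factors and of Socs1 are shown because Stat2, Irf9 and Irf7 differed in the same direction and because ISGF3 and STAT dimers are known to act through short promoter elements. The sequences are RefSeq windows of 300 bases on GRCm38.p6, from 250 bases before to 50 bases after a transcript start, printed 5′ to 3′ on the strand of the gene, and all 9 genes matched the table. Capitals mark a match, on either strand, to the ISRE core (GAAA, 2 bases of any kind, GAAA, or TTTC, 2 bases, TTTC on the other strand) or to the core of a gamma-activated site (GAS: TTC, 3 bases of any kind, GAA, which reads the same on both strands).
Stat2 (chr10:128270248-128270547, plus strand): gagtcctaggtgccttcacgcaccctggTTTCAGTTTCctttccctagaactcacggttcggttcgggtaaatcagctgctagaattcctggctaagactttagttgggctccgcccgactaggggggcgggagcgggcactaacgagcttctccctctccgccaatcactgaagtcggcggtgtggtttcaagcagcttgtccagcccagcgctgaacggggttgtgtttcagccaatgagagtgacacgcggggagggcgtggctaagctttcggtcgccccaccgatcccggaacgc
Irf9 (chr14:55603735-55604034, plus strand): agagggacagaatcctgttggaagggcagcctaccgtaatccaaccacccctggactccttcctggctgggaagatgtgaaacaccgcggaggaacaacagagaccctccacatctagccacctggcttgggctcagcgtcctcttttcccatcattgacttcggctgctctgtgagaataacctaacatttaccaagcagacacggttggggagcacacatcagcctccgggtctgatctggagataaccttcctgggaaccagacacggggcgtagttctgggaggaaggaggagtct
Irf7 (chr7:141266375-141266674, minus strand): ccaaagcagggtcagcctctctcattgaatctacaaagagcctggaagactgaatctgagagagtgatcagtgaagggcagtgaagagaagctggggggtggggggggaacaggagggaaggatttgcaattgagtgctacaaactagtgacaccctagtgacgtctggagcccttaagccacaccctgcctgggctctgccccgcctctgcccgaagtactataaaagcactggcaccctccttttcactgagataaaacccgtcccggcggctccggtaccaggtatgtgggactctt
Irf1 (chr11:53769764-53770063, plus strand): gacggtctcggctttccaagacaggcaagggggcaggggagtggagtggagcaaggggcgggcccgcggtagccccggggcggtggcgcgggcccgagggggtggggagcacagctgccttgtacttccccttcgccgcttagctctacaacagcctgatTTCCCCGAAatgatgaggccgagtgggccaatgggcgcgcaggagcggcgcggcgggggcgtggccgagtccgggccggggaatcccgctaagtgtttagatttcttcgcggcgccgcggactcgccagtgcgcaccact
Socs1 (chr16:10785487-10785786, minus strand): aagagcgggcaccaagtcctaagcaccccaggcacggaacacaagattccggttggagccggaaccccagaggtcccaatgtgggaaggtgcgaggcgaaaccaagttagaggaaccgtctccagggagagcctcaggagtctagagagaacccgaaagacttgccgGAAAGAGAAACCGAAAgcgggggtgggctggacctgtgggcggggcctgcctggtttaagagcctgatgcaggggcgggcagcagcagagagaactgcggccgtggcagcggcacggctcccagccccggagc

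The Stat2 window held 1 ISRE match, 222 to 213 bases upstream of the start. The Socs1 window held 2 overlapping matches, which begin 83 and 77 bases upstream. No ISRE letters were found in the printed Irf9 and Irf7 windows or in a further Irf9 window. The printed Irf1 window held 1 GAS match from 90 to 82 bases upstream, and a further Irf1 window held neither motif. GAS letters also occurred in the windows of Ifnar1 and Ifnar2, and neither motif was found for Jak1 and Tyk2. ISRE letters occur in 3.44% of the 32851 windows of the table and GAS letters in 8.3%. By gene, 2 of the 9 members held an ISRE match, against 3.99% of all genes of the table and 9 of the 21 ISGF3 target genes with an entry (42.9%), and 3 of the 9 held a GAS match (33.3%), against 9.55% of all genes. A match of letters is a description of these windows.

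All 4 receptor and kinase genes had a negative difference, and the intervals of Ifnar2 and Tyk2 spanned 0. Ifnar1, the chain that binds TYK2, read 10.68, 10.70 and 10.70 on the H19 siRNA arrays and 10.80, 10.87 and 10.77 on the control siRNA arrays. All H19 siRNA arrays were lower, with a difference of -0.12 (SE 0.04, interval -0.21 to -0.03) and a limma adjusted p of 0.310. Ifnar2, the chain that binds interferon most tightly and carries JAK1, read 11.57, 11.63 and 11.66 with H19 siRNA and 11.66, 11.68 and 11.63 with control siRNA. These groups overlapped, and the difference was -0.04 (interval -0.13 to 0.05). In the RefSeq gene order Ifnar2, Il10rb, Ifnar1 and Ifngr2 are neighbours, and Il10rb, a chain shared by interleukin-10 and interferon lambda receptors, differed by -0.03 and Ifngr2, a chain of the interferon gamma receptor, by 0.02.

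Jak1, the kinase shared by interferon and many cytokine receptors, read 11.75, 11.66 and 11.72 on the H19 siRNA arrays and 11.85, 11.83 and 11.79 on the control siRNA arrays. The groups did not overlap, with a gap of 0.04. The difference was -0.12 (SE 0.04, interval -0.21 to -0.02), with a limma adjusted p of 0.355. Tyk2, its partner on IFNAR1, read 9.17, 9.06 and 9.07 with H19 siRNA and 9.15, 9.07 and 9.16 with control siRNA. The Tyk2 groups overlapped almost fully, with a difference of -0.03 (interval -0.14 to 0.08). The intervals of Ifnar2 and Tyk2 both lie between -0.14 and 0.08.

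Socs1, which binds and blocks the JAK kinases, was the most variable of the 9 in the control group. It read 8.45, 8.44 and 8.34 on the H19 siRNA arrays and 8.11, 8.21 and 8.37 on the control siRNA arrays. The third control siRNA array lay above the third H19 siRNA array, so the groups overlapped. The difference was 0.18 (SE 0.07, interval 0.02 to 0.35), with a limma adjusted p of 0.414. Without the third control siRNA array the difference was 0.25, and without the first it was 0.12.

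Whether the factors passed the threshold depended on how the variance and the set of tested probe sets were handled. With an intensity trend and robust variance in limma, Stat2 (adjusted p = 0.00603), Irf9 (0.00147) and Irf7 (0.00752) passed as higher, where 1.12% of all units did, and Jak1 (0.0451) passed as lower, where 0.895% did. With units below the median level left out, the same 3 factors passed (Stat2 at 0.0305, Irf9 at 0.0133, Irf7 at 0.0159), against 1.35% of the units tested. With units below the 30th percentile left out, Irf9 (0.0425) and Irf7 (0.0467) passed, against 0.431%. Irf9 also passed with array weights (0.0401, against 0.227%) and after a second quantile normalisation (0.0464, against 0.162%). All 9 genes were above both filters. With 1 array left out none of the 9 passed, and the lowest adjusted p then were 0.0830 for Irf7, 0.101 for Irf9 and 0.181 for Stat2. Over all alternatives the differences ran from 0.21 to 0.29 for Stat2, 0.26 to 0.32 for Irf9 and 0.32 to 0.41 for Irf7.

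**Figure D3:**
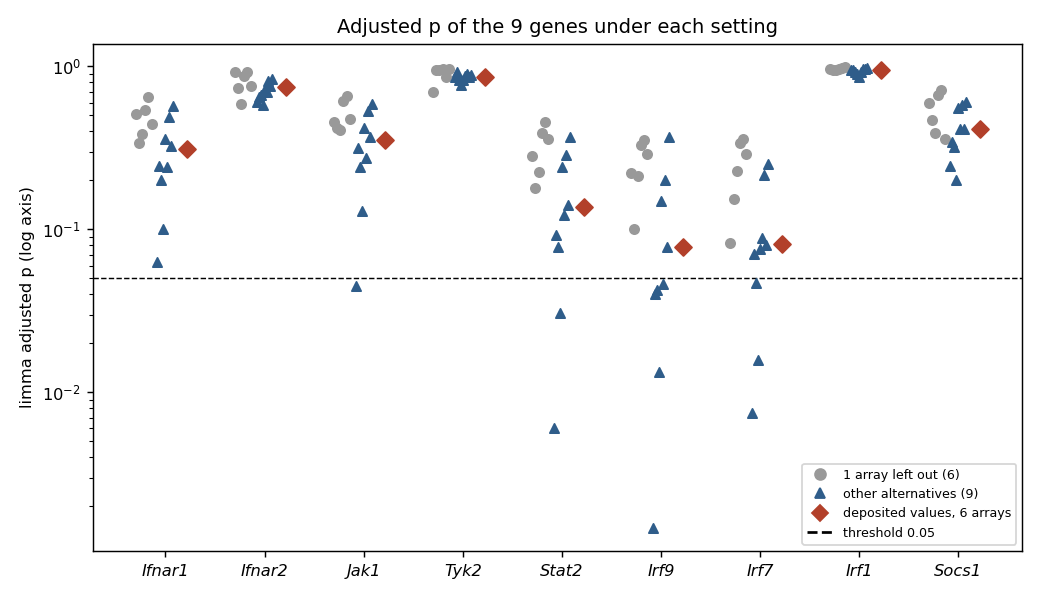
Limma adjusted p (log vertical axis) of each of the 9 genes for the deposited values with all 6 arrays (red), for the 6 fits with 1 array left out (grey) and for the 9 other alternatives (blue), with the 0.05 threshold dashed. Blue points fall below the line for Irf9 in 5 fits, Irf7 in 3, Stat2 in 2 and Jak1 in 1, and no grey point does.

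The genes upstream of the receptor gave no called member. Of 15 measured interferon ligand genes 0 passed in limma (1 at an unadjusted p under 0.05, higher, against 6.61% of all units). Of the 15, 12 had a positive difference, against 58.0% of all units, and the median was 0.06. Ifna4, an early interferon alpha gene, read 5.30, 5.43 and 5.25 with H19 siRNA and 5.04, 4.99 and 5.17 with control siRNA, a difference of 0.26 with a limma adjusted p of 0.240. This level lies at the 25.5th percentile of all probe sets, which is a dim signal. Ifnb1, the interferon beta gene, read 5.40, 5.38 and 5.10 with H19 siRNA and 5.12, 5.32 and 5.19 with control siRNA, and these groups overlapped. The Ifnb1 difference was 0.08 (interval -0.13 to 0.30). By smallest p the next were Ifnab at 0.20, Ifnl2, an interferon lambda gene, at 0.18 and Ifng, the interferon gamma gene, at 0.07, with limma adjusted p from 0.484 to 0.592. Closely related interferon alpha genes may share probes.

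Other receptor, kinase and factor genes of the family were also without a call. Of the 4 other interferon receptor chains 0 passed in limma (0 at an unadjusted p under 0.05), with differences from -0.03 to 0.16, the widest in Ifnlr1, an interferon lambda receptor chain. Among 6 other JAK and STAT genes 0 passed. At an unadjusted p under 0.05, 2 were higher (against 6.61% of all units), namely the closely related Stat5b at 0.11 and Stat5a at 0.10. Jak2 differed by -0.09 and Stat4 by 0.05, and Stat3, the main factor of interleukin-6 family signals, by 0.0009 (interval -0.08 to 0.08). All 5 other IRF genes had a positive difference, against 58.0% of all units. Their median was 0.05, with 0 passing (0 at an unadjusted p under 0.05). Among them were Irf8 at 0.11, Irf2, an antagonist of IRF1, at 0.05 and Irf5 at 0.07. Irf3, the constitutive factor that double-stranded RNA sensors activate, differed by 0.04.

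Receptors that pair with the same kinases gave no called gene. Of 11 measured, 7 had a negative difference, the median was -0.04 and 0 passed in limma. At an unadjusted p under 0.05 there were 1 higher and 3 lower, against 6.61% and 4.25% of all units. Osmr, the oncostatin M receptor, read 11.54, 11.55 and 11.53 with H19 siRNA and 11.66, 11.67 and 11.67 with control siRNA. The groups were clearly apart, with a difference of -0.12 (SE 0.03, limma adjusted p = 0.237). Il6st, the gp130 chain that OSMR pairs with, differed by -0.11 and Il4ra, the interleukin-4 receptor, by -0.12, while Lifr, the leukaemia inhibitory factor receptor, differed by 0.10. Of 11 genes 4 did not overlap in the lower direction, against 7.09% of all units.

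Among 20 other inhibitors of JAK-STAT signalling only Usp18 passed, and 19 did not, where 0.125% of all units were called higher. Usp18, a protease that removes ISG15 and also binds IFNAR2 to displace JAK1, read 9.42, 9.33 and 9.38 with H19 siRNA and 8.58, 8.40 and 8.58 with control siRNA. Every H19 siRNA array was above every control siRNA array, and Usp18 rose by 0.85 (SE 0.06, limma adjusted p = 0.00759). It is also on the ISGF3 target list, and its call was lost without H19 siRNA replicate 1 or 3 or control siRNA replicate 1 or 3, where the list had 0 calls. The list's median was 0.0014. Socs3, the inhibitor induced by interleukin-6 family cytokines, differed by -0.10 (interval -0.20 to 0.0097), opposite in sign to Socs1, and Socs5 differed by -0.10 and Socs6 by 0.08.

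Downstream of the 9 genes, called changes were found among the targets of ISGF3. Of 31 measured targets 9 rose, 0 fell and 22 did not pass, where 0.125% of all units were called higher and 0.0742% lower. The median difference of the 31 was 0.26, against 0.0137 over all units. The 9 were Usp18, Ifit1 and Ifit3, RNA-binding antiviral proteins, Oas2 and Oasl2 of the oligoadenylate synthetase family, Xaf1, Bst2, which tethers virions, Ifi27l2a and Lgals3bp, a secreted glycoprotein, with differences from 0.39 for Bst2 to 0.85 for Usp18 and limma adjusted p from 0.00404 for Ifit1 to 0.0425 for Lgals3bp. The called count was 0 without H19 siRNA replicate 3 or control siRNA replicate 1, 1 without H19 siRNA replicate 1, 2 without control siRNA replicate 2 or 3, 6 without H19 siRNA replicate 2, and 17 with an intensity trend. Among the 3 H19 siRNA arrays, array 1 was the highest for 15 of the 31 targets, array 2 for 5 and array 3 for 11, while array 1 was the lowest for 5, array 2 for 20 and array 3 for 6. Irf9 was highest on array 1 and lowest on array 2, and Stat2 was highest on array 1 and lowest on array 3. Irf7 was highest on array 2 and lowest on array 1. The muscle markers Myod1, Myog, Myf5, Des, Cdh15, Mymk, Tnnt2 and Chrna1 were also lowest on array 2, and Myh3 and Acta1 on array 3. Array 2 had the lowest mean Pearson's r to the other arrays (0.9962). A lowest value on array 2 was thus also seen in genes outside these targets. The order of the arrays over all units was not tested.

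Of 21 targets of IRF1 and interferon gamma with a probe set of their own 2 rose, 0 fell and 19 did not pass. Over all units 0.125% were called higher and 0.0742% lower. The median of the 21 was 0.10. The 2 that rose were Cxcl10, a chemokine that ISGF3 also induces, and Iigp1, an immunity-related GTPase. Cxcl10 read 8.46, 8.46 and 8.44 with H19 siRNA and 8.07, 8.13 and 8.13 with control siRNA, and it rose by 0.34 (SE 0.03, limma adjusted p = 0.0246). Iigp1 rose by 0.44 (limma adjusted p = 0.0490). A probe set shared by Irgm2 and Igtp, both on this list, was not counted because it lists 2 genes. It was also called, with a rise of 0.54 (limma adjusted p = 0.0239). Cxcl9, the chemokine next to Cxcl10, differed by 0.39 and Gbp3, a guanylate-binding protein, by 0.28, with adjusted p of 0.0758 and 0.0971. The called count of this list was 1 without H19 siRNA replicate 2 and 0 in the other 5 fits without 1 array. The lists of targets were written with earlier results of these arrays known, so their direction is not independent evidence.

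**Figure D4:**
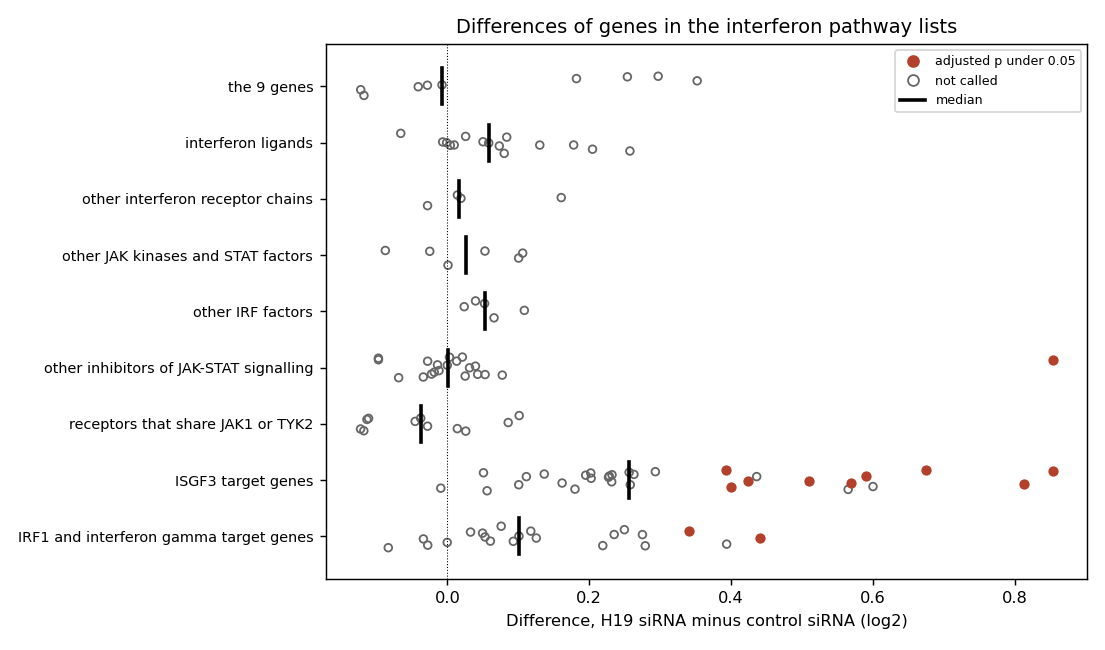
Difference between H19 siRNA and control siRNA (log2, horizontal axis) of each gene with a probe set of its own, in the 9-gene set and the 8 pathway lists. Genes past an adjusted p of 0.05 are filled in red, and medians are black bars. Filled points occur in the ISGF3 targets (9), the targets of IRF1 and interferon gamma (2) and the inhibitors (Usp18), and the lists of ligands, receptors, kinases and factors centre near 0.

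The genes most like Irf9, the member with the smallest p, were not interferon genes. By Pearson's r over the 6 arrays the 5 nearest were Bcar1, an adaptor of focal adhesions, at 0.9996, Rbm24, a muscle splicing regulator, at 0.9988, Rcc2 at 0.9966, 2310022A10Rik at 0.9955 and Myc at 0.9948. All 5 were higher on every H19 siRNA array than on any control siRNA array, with differences from 0.07 for Rcc2 to 0.29 for Rbm24. After the group means were taken out their r with Irf9 stayed between 0.95 and 0.9961. The 5 were chosen by their r with Irf9, whose own groups did not overlap. Neither the lack of overlap nor the remaining r is therefore independent of that choice. Of the other units 659 had an r above 0.9 with Irf9, so these values describe the profiles and single out no gene.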

How the data were processed

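The authors deposited log2 values, 1 per probe set and array. Per the submitters' processing notes these are RMA values from Affymetrix Expression Console. Its version and the probe set library are not given in the sources. RMA corrects background, quantile-normalises arrays and summarises probes, which compresses differences near background. Detection calls and scanner intensities were not used here, and the number of arrays limits precision. Groups came from the sample titles.

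Probe sets were named through GEO's platform annotation, checked by gene ID against RefSeq (0 symbols updated). A gene was represented by its brightest probe set, and 1621 probe sets with several symbols stayed as unnamed units. Differences were tested two-sided with limma 3.58.1 under R 4.3.3 (lmFit, eBayes), with no covariate and no filter, Benjamini-Hochberg over 21559 units. The fit was tested on simulated data. It called 40.1% of log2 changes of 0.25, 94.0% of changes of 0.5 and 99.8% of changes of 1. Whether the same shares hold for the measured arrays was not tested. The members, the gene and marker lists and the rule for named genes were chosen with earlier results of these data known. That rule took all members, the H19 signal, per pathway list up to 4 genes of smallest p and any called gene, and the 5 genes most correlated with the member of smallest p. Ifnb1, Stat3 and the receptor neighbours were named for their roles after their values were seen. So were the muscle markers and the marker genes Ptprc, Adgre1, Cd14, Cd68, Siglech, Tcf4, Spib and Ly6d. Of 5 endothelial markers 0 passed in limma (0 at an unadjusted p under 0.05). Alternatives were other variance models, array weights, filters, scalings, probe set rules, the replicate number as a block and leaving out each array.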

Additional observations from a re-analysis of the deposited data

How the results depend on the processing

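The count of the 9 genes called higher was 0 with the deposited values and 3 under robust variance with an intensity trend, 3 with the filter at the median of the unit levels, 2 with the filter at the 30th percentile, 1 with array weights and 1 after a second quantile normalisation. The count called lower was 0, and 1 under robust variance with an intensity trend. Both stayed at 0 after median centring, over every row of the table, with the mean of the probe sets of a gene, and in the 6 fits without 1 array. The filters test fewer units and also changed the SE of the fit, for Irf9 from 0.0436 to 0.0382 with the filter at the median. The cause of the changes in these counts was not tested. The sign of each member's difference was kept in all 15 alternatives, except that Irf1 went to 0.0095 with the mean of its 2 probe sets, which also made the median of the 9 genes 0.0095. Over the fits without 1 array that median ran from -0.0104 to -0.0020.

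Over all units 27 were called higher and 16 lower. The counts were 242 and 193 with the intensity trend, 145 and 121 above the median, 65 and 46 with the filter at the 30th percentile, 49 and 21 with array weights, 35 and 25 after a second quantile normalisation, 6 and 5 over every row, and 0 to 12 and 1 to 9 without 1 array. Median centring gave 19 and 17, or 52.8% higher against 62.8%, and moved the median of all units by -0.02.

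With the replicate number as a replicate block 0 members were called higher and 0 lower, 2 units were called higher and 1 lower in all, and 1 ISGF3 target was called. The deviations of same-numbered arrays correlated at -0.02, -0.13 and -0.14, and 0 of 6 arrays correlated best with their own number. With 3 arrays per group these values cannot show whether same-numbered arrays share a culture or a day, and the labels do not say. Targets of IRF1 and interferon gamma had 5 calls with an intensity trend, 4 with array weights, 3 with the filter at the median and 0 over every row or with the block, and ISGF3 targets had 3 over every row. Receptors that share JAK1 or TYK2 had 2 called lower with the intensity trend and 1 above the median.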
